A study of Homo sapiens with 4 samples.

Results

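The 10 genes described here are the epidermal growth factor (EGF) family ligands *AREG*, *EREG*, *HBEGF*, *TGFA* and *BTC*, the sheddases *ADAM10* and *ADAM17*, and the ERK feedback genes *DUSP5*, *DUSP6* and *SPRY2*. They were chosen by name, with no measured value in the rule, but with earlier results of these data known. Each was found once among the 63677 genes of the count files by its Ensembl identifier. RNAseq was used to ask how the transcriptome of a highly metastatic esophageal adenocarcinoma subline differed from that of its parent. The parental line, FLO-1, is a long-established line of human esophageal adenocarcinoma and gave 2 libraries. FLO-1LM gave the other 2 libraries and is a single subline, cultured from a liver macrometastasis after FLO-1 tumors had been passaged repeatedly through immunodeficient NSG mice and kept for several passages in culture before use. Both lines were grown as untreated monolayers and harvested before confluence, a day after their medium was renewed. Whether the 2 libraries of each line were separate cultures is not stated, so the p-values measure only the spread between these libraries, which may be technical. No batch or date is given, and a difference between the lines cannot be told apart from one between unrecorded batches, or from one that arose in culture, in the mice or during isolation.

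EGF-family ligands are made as membrane-anchored precursors, and metalloproteases of the ADAM family cut them free from the cell surface. ADAM17 is best known for releasing amphiregulin, epiregulin, heparin-binding EGF and transforming growth factor alpha, and ADAM10 for releasing EGF and betacellulin. The released ligand binds EGFR or another ERBB receptor, the RAS-RAF-MEK-ERK cascade is activated, and ERK induces its own inhibitors, among them the DUSP phosphatases and the Sprouty proteins. Esophageal adenocarcinomas often carry extra copies of *EGFR* or *ERBB2*, which makes the supply of ligand in such cells a common question.

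None of the 10 genes passed the test between the lines (edgeR quasi-likelihood test, Benjamini-Hochberg adjusted p under 0.05 over all genes tested). The ligand genes *AREG*, *EREG* and *BTC* had 0 counts in all 4 libraries, which for *AREG* cannot be read as absence of the transcript. Of the 7 genes that could be tested, *TGFA* had the largest difference, with 3 reads in FLO-1LM and 22 in parental cells, and it was the only one with an unadjusted p under 0.05. However, *TGFA* had enough reads for the test only in parental cells, and keeping a gene in that way favors a lower level in FLO-1LM. The transcripts of both sheddases were abundant and differed little, with 95% intervals of the fold change from 0.905 to 1.13 for *ADAM10* and from 0.867 to 1.12 for *ADAM17*. In bulk RNA, fewer cells with a transcript and less of it per cell cannot be told apart.

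Total counts ran from 19060310 to 25920336 per library, and 17143 genes were abundant enough to be tested. Between the lines, 382 of them passed the threshold, 69 higher and 313 lower in FLO-1LM. Reads were counted for 21152 and 21304 genes in FLO-1LM and for 23104 and 22908 in parental cells. The parental libraries thus held counts for more genes, although their totals were smaller, at 21750508 and 19060310 against 22646123 and 25920336. With at least 10 counts required in every library, 203 genes were called lower. Whether this bears on ligand genes with few reads, such as *TGFA* and *NRG4*, was not tested. The lines were checked against cell type markers. Transcripts of the keratins *KRT8*, *KRT18* and *KRT19* and of *CDH1* were present, but those of a further epithelial marker, *EPCAM*, were near 0 with 3 to 12 counts per library. The 4 epithelial markers that could be tested were all lower in FLO-1LM, and the 5 together summed to between 481 and 495 CPM (reads scaled to the same depth) in FLO-1LM against 844 to 857 in parental cells. Fibroblast markers summed to at most 13.1 CPM in FLO-1LM and 12.8 in parental cells. Most of this was *COL1A1*, with 9.69 to 12.7 CPM per library. Hepatocyte markers summed to 13.4 to 14.8 and 16.4 to 18.1 CPM, with *ALB* and *TTR* at 0 in every library. Nearly all of that sum was *SERPINA1*, with 13.2 to 18.0 CPM per library. Leukocyte markers summed to at most 0.224 CPM, with *PTPRC* and *MS4A1* at 0, and the endothelial markers found to at most 0.313. The part of the epithelial difference in any result below was not tested.

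Few reads or none were counted for the ligands. *AREG* (ENSG00000109321, chr4:75310853-75320722, plus strand, GRCh37), which encodes amphiregulin, *EREG* (ENSG00000124882, chr4:75230862-75254466, plus strand), which encodes epiregulin, and *BTC* (ENSG00000174808, chr4:75669969-75719733, minus strand), which encodes betacellulin, lie near each other on chromosome 4 together with *EPGN*, the gene for epigen. The stretch from *EPGN* to *BTC*, chr4:75174187-75719733, holds 9 genes of the files, 5 of them protein-coding, and all 9 had 0 counts in every library. *AREG* and a near-identical copy are among the 5, and their 0 counts are limited as described below. A count of 0 allows a level of up to 0.116 to 0.156 CPM, depending on the library (3 counts of its total, counting error only). Across the files, 37390 of the 63677 genes, coding and noncoding together, likewise had no count in any library.

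For *AREG* the 0 cannot be read as absence of the transcript. GRCh37 holds a second, nearly identical gene, *AREGB* (ENSG00000205595, chr4:75480629-75490486), which also had 0 counts in all libraries. The 913 coding bases of *AREG*, in 6 exons, differed from those at *AREGB* at 1 base, in the first coding exon. The first coding exon is printed here because it holds that base, in capitals, at chr4:75311063-75311123 for *AREG* and chr4:75480839-75480899 for *AREGB*, both on the plus strand of GRCh37.

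AREG first coding exon: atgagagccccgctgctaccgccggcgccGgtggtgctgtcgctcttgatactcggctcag

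AREGB first coding exon: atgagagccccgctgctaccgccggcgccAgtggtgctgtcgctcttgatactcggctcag

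A stretch of 100 bases from the second coding exon, chr4:75312251-75312350 in *AREG* and chr4:75482006-75482105 in *AREGB*, shows what a read from either gene would look like, with no base to tell the copies apart.

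AREG: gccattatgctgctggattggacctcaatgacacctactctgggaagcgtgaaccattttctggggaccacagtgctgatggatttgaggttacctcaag

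AREGB: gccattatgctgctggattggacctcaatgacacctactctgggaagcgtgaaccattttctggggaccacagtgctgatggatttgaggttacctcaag

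When the exons of *AREG* were read in windows of 75 bases, 1166 of 1198 windows (97.3%) occurred again elsewhere in GRCh37, and for *AREGB* 1171 of 1203 (97.3%) did. How reads with several matches were counted is not given in the sources used here. Other genes with near-identical copies, chosen after their counts were seen, do not show how such reads were treated. *BOLA2* and *BOLA2B*, whose windows recurred in 100% of cases, had 0 counts in all 4 libraries. *SMN1*, with 85.8% of windows recurring, had between 27 and 44 counts per library, which may come from its 325 windows that did not recur. No such limit was found for *EREG* and *BTC*, where 0.243% and 0 of the windows recurred.

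*HBEGF* (ENSG00000113070, chr5:139712428-139726188, minus strand) encodes heparin-binding EGF-like growth factor and was the more abundant of the 2 with reads. Its counts were 95 and 95 in FLO-1LM and 83 and 115 in parental cells, or 4.26 and 3.69 against 3.76 and 5.99 CPM. The highest level was in 1 parental library, and the ranges of the lines overlapped. Mean levels were 3.97 ± 0.41 CPM in FLO-1LM and 4.88 ± 1.58 CPM in parental cells (SD, n = 2 each). The log2 fold change was −0.29 (95% interval −0.88 to 0.30, edgeR adjusted p = 0.766), and without parental replicate 2 it was 0.078.

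*TGFA* (ENSG00000163235, chr2:70674416-70781325, minus strand) encodes transforming growth factor alpha, a ligand specific to EGFR. It had 2 and 1 counts in FLO-1LM and 10 and 12 in parental cells, or 0.0897 and 0.0388 against 0.453 and 0.625 CPM. Both FLO-1LM libraries were below both parental libraries, although each rested on very few reads. With the libraries of a line summed and scaled to depth, the parental level was 8.54 times that of FLO-1LM (exact 95% interval 2.57 to 44.6, counting error only). The log2 fold change was −2.99 ± 1.04 (SE, 95% interval −5.18 to −0.80), with an unadjusted p of 0.0102 and an adjusted p of 0.194 by edgeR. *TGFA* entered the test only through its parental counts, since its FLO-1LM libraries alone would not have passed the filter on low counts. Keeping a gene in that way favors a lower level in FLO-1LM, so the direction of its difference is no independent result. None of its exon windows recurred elsewhere in the genome.

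Promoter sequences are printed for *HBEGF*, which had reads, and for *EREG* and *BTC*, which had none. Whether promoter sequence bears on these levels was not tested. RefSeq promoters of GRCh38.p14, from 250 bases before to 50 after each start, were matched for 7 of the 10 genes, but not for *TGFA*. *HBEGF* had 38 CG pairs in its 300 bases, against a median of 14 over 35116 promoters, and 9.91% of all promoters had as many or more. *EREG* and *BTC* each had 12, and 53.1% of all promoters had as many or more. *AREG*, whose counts cannot be read, had 27, and *ADAM17*, *ADAM10* and *DUSP6* had 36, 30 and 19. The letters TATAAA, searched on both strands, were in the windows of *AREG* and *EREG* and in 11.5% of all promoters. The 120 bases just before the start are printed in the direction of each gene with CG pairs in capitals, for *EREG* at chr4:74365025-74365144 (plus strand), *HBEGF* at chr5:140346604-140346723 (minus strand) and *BTC* at chr4:74794524-74794643 (minus strand), all in GRCh38.p14.

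EREG: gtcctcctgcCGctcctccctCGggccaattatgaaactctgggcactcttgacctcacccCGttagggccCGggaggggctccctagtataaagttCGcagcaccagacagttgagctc

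HBEGF: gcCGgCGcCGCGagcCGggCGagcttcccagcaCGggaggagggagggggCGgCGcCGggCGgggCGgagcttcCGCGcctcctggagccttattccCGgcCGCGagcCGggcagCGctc

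BTC: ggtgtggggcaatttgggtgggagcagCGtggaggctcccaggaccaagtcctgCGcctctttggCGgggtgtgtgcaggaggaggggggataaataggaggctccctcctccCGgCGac

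The printed stretch holds 19 CG pairs for *HBEGF* and 5 each for *EREG* and *BTC*. These are counts of letters in the reference, and methylation of these sites was not analysed here.

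Both sheddases had far more counts than *HBEGF* or *TGFA*, the 2 of the 5 ligands with reads. *ADAM10* (ENSG00000137845, chr15:58881008-59041990, minus strand) had 4449 and 4785 counts in FLO-1LM and 4359 and 3510 in parental cells, or 199.5 and 185.7 against 197.5 and 182.9 CPM. Each line had 1 higher and 1 lower library, so the ranges overlapped almost fully. The log2 fold change was 0.017 ± 0.077 (SE, 95% interval −0.14 to 0.18, edgeR adjusted p = 0.964).

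*ADAM17* (ENSG00000151694, chr2:9628615-9696861, minus strand), first known as the enzyme that releases tumor necrosis factor, had 1668 and 2119 counts in FLO-1LM and 1784 and 1514 in parental cells. These were 74.8 and 82.2 against 80.8 and 78.9 CPM, with both parental libraries between the FLO-1LM libraries. The log2 fold change was −0.024 ± 0.086 (SE, 95% interval −0.21 to 0.16, edgeR adjusted p = 0.949). Its exons overlap those of *IAH1* on the opposite strand by 1645 bases, and *IAH1* had 719 to 988 counts per library. The libraries keep strand, but the strand setting of the counting is not given in the sources used here, so reads in that overlap cannot be told apart. The signs of both sheddases' fold changes turned when single libraries were left out, within the intervals given.

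**Figure D1:**
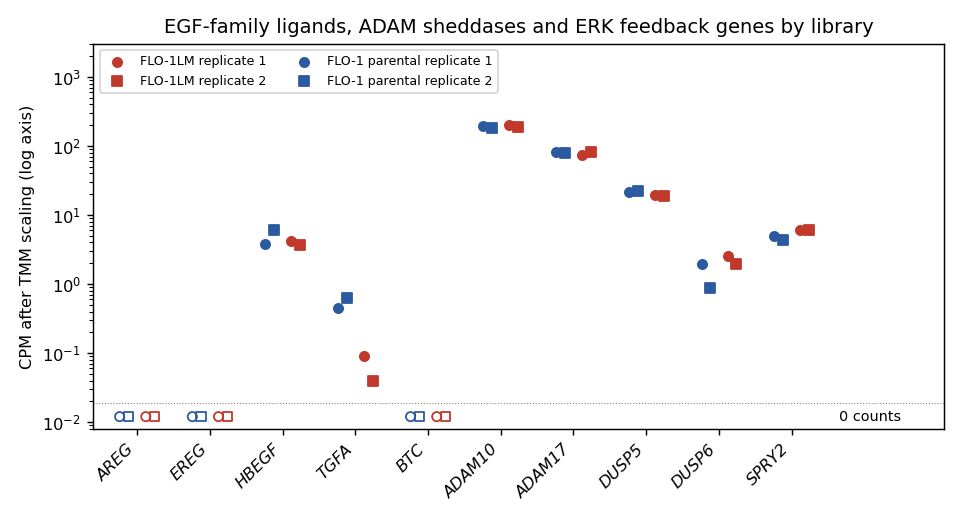
Level of each gene in each library, in CPM on a log axis, with a point for each FLO-1LM (red) and FLO-1 parental (blue) library and genes without a count as open points at the foot. The points of the lines overlap for *HBEGF*, *ADAM10*, *ADAM17* and *DUSP6*, while *TGFA* and *DUSP5* are lower and *SPRY2* is higher in both FLO-1LM libraries.

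The feedback genes report, in many cell types, on how strongly ERK signals. *DUSP5* (ENSG00000138166, chr10:112257665-112271291, plus strand), a nuclear phosphatase that inactivates ERK, had 437 and 493 counts in FLO-1LM and 482 and 427 in parental cells. Scaled to depth, these were 19.6 and 19.1 against 21.8 and 22.2 CPM, so that both FLO-1LM libraries were below both parental ones. Mean levels were 19.4 ± 0.330 and 22.0 ± 0.286 CPM (SD, n = 2 each). That difference, −0.19 ± 0.13 on the log2 scale (SE, 95% interval −0.46 to 0.088), did not pass the test (edgeR adjusted p = 0.637).

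A pseudogene of *DUSP5*, *DUSP5P1* (ENSG00000183929, chr1:228785988-228787126, plus strand), was also counted, with 182 and 222 reads in FLO-1LM and 210 and 186 in parental cells. Its log2 fold change was −0.19 ± 0.19 (SE, edgeR adjusted p = 0.765). Of the 1152 coding bases of *DUSP5*, 1119 could be aligned to the pseudogene and 85.6% of these were identical. A stretch of 90 bases, chr10:112269778-112269867 in *DUSP5* and chr1:228786720-228786809 in *DUSP5P1* (GRCh37), is printed to show that reads of the pair can be separated, with the 9 differing bases in capitals.

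DUSP5: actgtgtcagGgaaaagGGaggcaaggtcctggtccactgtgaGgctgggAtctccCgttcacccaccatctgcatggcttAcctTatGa

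DUSP5P1: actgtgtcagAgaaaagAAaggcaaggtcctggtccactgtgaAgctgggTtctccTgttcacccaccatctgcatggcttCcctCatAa

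No 75-base window of either gene occurred elsewhere in the genome without a mismatch, in contrast to *AREG* and *AREGB*.

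*DUSP6* (ENSG00000139318, chr12:89741012-89746278, minus strand), the cytoplasmic counterpart that is specific to ERK, had 56 and 50 counts in FLO-1LM and 43 and 17 in parental cells. Its levels were 2.51 and 1.94 against 1.95 and 0.886 CPM, and the ranges overlapped by the narrowest of margins. Mean levels were 2.23 ± 0.404 CPM in FLO-1LM and 1.42 ± 0.752 CPM in parental cells (SD, n = 2 each). Its log2 fold change was 0.63 ± 0.45 (SE, 95% interval −0.31 to 1.58, edgeR adjusted p = 0.642), the largest in the direction of FLO-1LM among the 10 genes. It rested largely on parental replicate 2, without which it was 0.19, while without parental replicate 1 it was 1.32. A long noncoding RNA gene of the annotation used here lies opposite 1105 bases of its exons and has no value here.

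*SPRY2* (ENSG00000136158, chr13:80910111-80915261, minus strand), a Sprouty inhibitor of receptor signaling upstream of ERK, had 135 and 157 counts in FLO-1LM and 108 and 83 in parental cells. Its levels of 6.05 and 6.09 CPM in FLO-1LM were both above those of 4.89 and 4.32 CPM in parental cells. Its log2 fold change was 0.40 ± 0.24 (SE, 95% interval −0.10 to 0.89, edgeR adjusted p = 0.548). The feedback genes thus had point estimates in both directions, none past the threshold.

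Of the 7 genes tested, 3 had a positive and 4 a negative log2 fold change, with a median of −0.02 against 0.0016 over all 17143 genes. By edgeR, 0 of the 7 were called, where 2.23% of all genes tested were called, 0.402% as higher and 1.83% as lower in FLO-1LM. One of the 7, *TGFA*, had an unadjusted p under 0.05, as had 12.4% of all genes tested, but it was tested only through its parental counts. DESeq2 and limma voom each likewise called 0 and gave 1 an unadjusted p under 0.05. The libraries of the lines did not overlap for 3 of the 7, of which *SPRY2* was higher and *TGFA* and *DUSP5* were lower in FLO-1LM, against 42.6% of all genes tested. These shares lie near those of all genes, so they are no result about the 10 genes. For 1 gene alone, an exact two-sided permutation test of 2 against 2 libraries cannot give a p below 0.333.

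**Figure D2:**
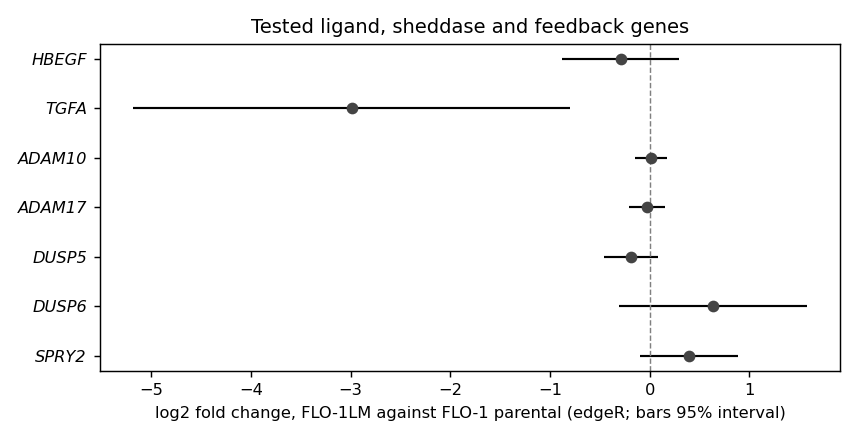
Log2 fold change of FLO-1LM against FLO-1 parental cells for the 7 genes tested, with bars for the 95% interval of the edgeR fit and a dashed line at no change. The intervals of *ADAM10* and *ADAM17* are narrow and include 0, that of *DUSP6* runs from −0.31 to 1.58, and only that of *TGFA*, from −5.18 to −0.80, leaves out 0 before adjustment. *TGFA* was tested only through its parental counts, which favors a lower level in FLO-1LM.

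Levels of different genes were compared as CPM per kilobase of the canonical transcript. The exons of all transcripts together cover more bases, so the order of genes depends on this choice. They cover 15964 bases for *ADAM17* (4391 canonical), 15979 for *ADAM10* (11158 canonical) and 2535 for *DUSP5* (2477 canonical). The order of *ADAM17*, *ADAM10* and *DUSP5* given here holds for the canonical lengths only. *ADAM17* and *ADAM10* stood highest of the 7 genes with counts, with mean levels of 17.9 and 17.3 CPM per kilobase in FLO-1LM and 18.2 and 17.0 in parental cells, and their libraries overlapped in FLO-1LM, while in parental cells both *ADAM17* libraries were above both *ADAM10* libraries. *DUSP5* followed with 7.82 and 8.90. Next came *SPRY2* with 2.66 and 2.02 and *HBEGF* with 1.69 and 2.07, whose libraries overlapped in parental cells, while in FLO-1LM both *SPRY2* libraries were above both *HBEGF* libraries. *DUSP6* had 0.614 and 0.391, and *TGFA* 0.0156 and 0.131.

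Among genes around these, *EGFR* itself was at 13.4 and 13.5 CPM per kilobase, and *ERBB2* at 37.5 and 34.8. *ERBB3*, which has little kinase activity of its own and signals mainly through its partners, was at 2.92 and 2.84. *ERBB4* had 0 counts in all 4 libraries. Transcripts of *EGFR* and *ERBB2* were thus present in both lines at levels per length well above those of *HBEGF* and *TGFA*.

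**Figure D3:**
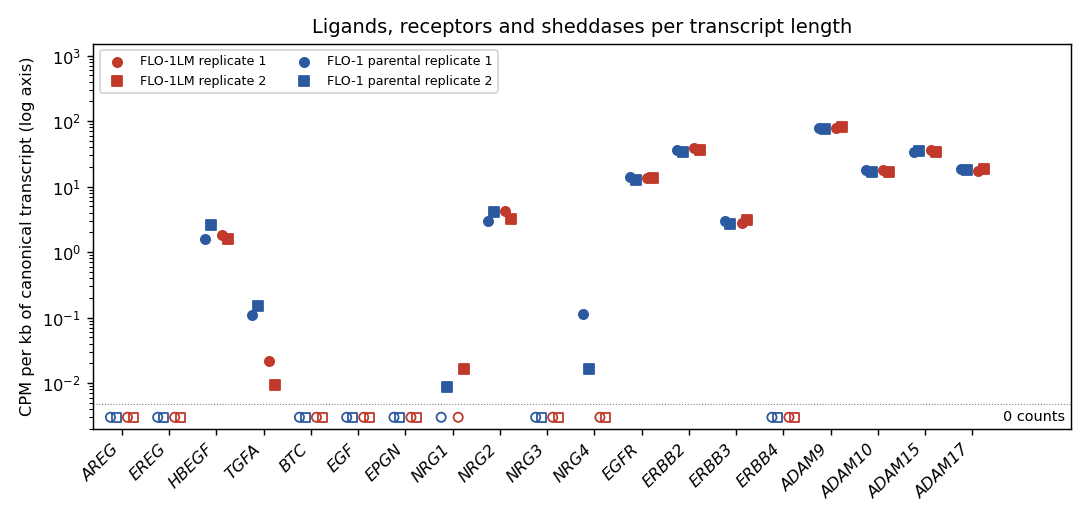
Level per transcript length, in CPM per kilobase on a log axis, for each library of FLO-1LM (red) and FLO-1 parental cells (blue), for all EGF-family ligands, the ERBB receptors and 4 ADAM proteases, with genes without a count as open points at the foot. *ADAM10*, *ADAM17*, *EGFR* and *ERBB2* stand above each ligand with reads, and *AREG*, *EREG*, *BTC* and *ERBB4* had 0 counts.

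A further 78 genes of the pathway were read from the same fit, of which 70 could be tested and 5 had no count in any library. One of the 70 was called, *EGR1*, where 2.23% of all genes tested were, and 9 had an unadjusted p under 0.05, where 12.4% of all genes tested had. The lines did not overlap for 33 of the 70, 13 higher and 20 lower in FLO-1LM, where 42.6% of all genes tested did not overlap. Among the 6 other EGF-family ligands, *EGF*, *EPGN* and *NRG3* had 0 counts throughout. *NRG2*, a neuregulin that binds ERBB3 and ERBB4, was the only one of the 6 with enough counts for a test, with 366 and 325 in FLO-1LM and 259 and 308 in parental cells (log2 fold change 0.064, edgeR adjusted p = 0.936). *NRG1* had 5 reads in FLO-1LM and 2 in parental cells, in each line from a single library. *NRG4* had 0 in both FLO-1LM libraries and 8 and 1 in the parental ones, so that most of its reads came from 1 library.

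Of the 13 genes for ERBB receptors and the adaptors next to them, 12 were tested and 0 were called or had an unadjusted p under 0.05 by edgeR, and their log2 fold changes ran only from −0.12 to 0.11. *EGFR* had counts of 2966 and 3411 in FLO-1LM and 3089 and 2431 in parental cells, a log2 fold change of −0.0075 (95% interval −0.17 to 0.16, edgeR adjusted p = 0.986). The values for *ERBB2* were 0.11 (−0.055 to 0.27, edgeR adjusted p = 0.648), and those for *ERBB3* were 0.040 (−0.28 to 0.36, edgeR adjusted p = 0.954). The largest estimates of this group were −0.12 for *LRIG1*, which promotes the degradation of ERBB receptors (edgeR adjusted p = 0.808), and 0.11 for *PTPN11*, the phosphatase SHP2 (edgeR adjusted p = 0.652).

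Among 20 other ADAM proteases and regulators of shedding, 19 were tested, with 9 positive and 10 negative estimates and a median of −0.02. None was called by edgeR, and 3 of the 19 had an unadjusted p under 0.05, against 12.4% of all genes tested. *TSPAN5*, a tetraspanin that escorts ADAM10 to the cell surface, had 207 and 253 counts in FLO-1LM and 136 and 111 in parental cells. Its levels were 9.55 ± 0.378 and 5.97 ± 0.269 CPM (SD, n = 2 each), with a log2 fold change of 0.68 ± 0.20 (SE, edgeR adjusted p = 0.104). *ADAM19*, a protease that can cleave neuregulin, had a log2 fold change of 0.43 (edgeR adjusted p = 0.288). *FURIN*, which removes the prodomain of ADAM proteases and is named after its value was seen, had one of −0.17 (edgeR adjusted p = 0.374).

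All 13 genes of the RAS-RAF-MEK-ERK cascade were tested, 4 with positive and 9 with negative estimates, and by edgeR 0 were called and 0 had an unadjusted p under 0.05. Their log2 fold changes ran from −0.18 for *KSR1*, a scaffold of the cascade (edgeR adjusted p = 0.643), to 0.19 for *RASA1*, which switches RAS off (edgeR adjusted p = 0.429). The 8 other MAP kinase phosphatases split evenly, 4 against 4, with 0 called and 1 at an unadjusted p under 0.05 by edgeR. That gene was *DUSP2*, a nuclear phosphatase for ERK and p38, with 50 and 43 counts in FLO-1LM and 93 and 92 in parental cells. The levels of *DUSP2*, 1.96 ± 0.406 and 4.50 ± 0.409 CPM (SD, n = 2 each), gave a log2 fold change of −1.21 ± 0.32 (SE), and its edgeR adjusted p of 0.0552 lay just over the threshold. *DUSP4* had a log2 fold change of −0.40 (edgeR adjusted p = 0.823).

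Of the 6 other SPRY and SPRED inhibitors, all were tested, 2 with positive and 4 with negative estimates, and by edgeR 0 were called and 1 had an unadjusted p under 0.05. That gene was *SPRY1*, another Sprouty inhibitor, with 58 and 43 counts in FLO-1LM and 15 and 21 in parental cells. Both FLO-1LM libraries were above both parental ones, with a log2 fold change of 1.27 ± 0.50 (SE, edgeR adjusted p = 0.274). *SPRY3* had 0.41 (edgeR adjusted p = 0.874).

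Transcripts that ERK is known to induce gave the only call of the pathway. *EGR1*, an immediate early transcription factor, had 407 and 390 counts in FLO-1LM and 571 and 485 in parental cells, or 16.7 ± 2.20 and 25.6 ± 0.429 CPM (SD, n = 2 each). Its level fell in FLO-1LM by 0.62 ± 0.14 on the log2 scale (SE, edgeR adjusted p = 0.0209). The call was lost without parental replicate 1 (log2 fold change −0.60, edgeR adjusted p = 0.295) and without parental replicate 2 (−0.63, edgeR adjusted p = 0.173), and over all alternatives the adjusted p ran from 5.28e-05 to 0.295. Of the 12 genes on this list 11 were tested, 4 with positive and 7 with negative estimates and a median of −0.05. One of the 11 was called and 4 had an unadjusted p under 0.05, against 2.23% and 12.4% of all genes tested. Besides *EGR1* these were *MYC* with a log2 fold change of 0.32 (edgeR adjusted p = 0.0786), *ETV4* with 0.42 (edgeR adjusted p = 0.319) and *EPHA2* with −0.19 (edgeR adjusted p = 0.240), named after their values were seen. The largest positive estimate was that of *ETV1*, an ETS-family transcription factor, with 0.90 (edgeR adjusted p = 0.500).

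**Figure D4:**
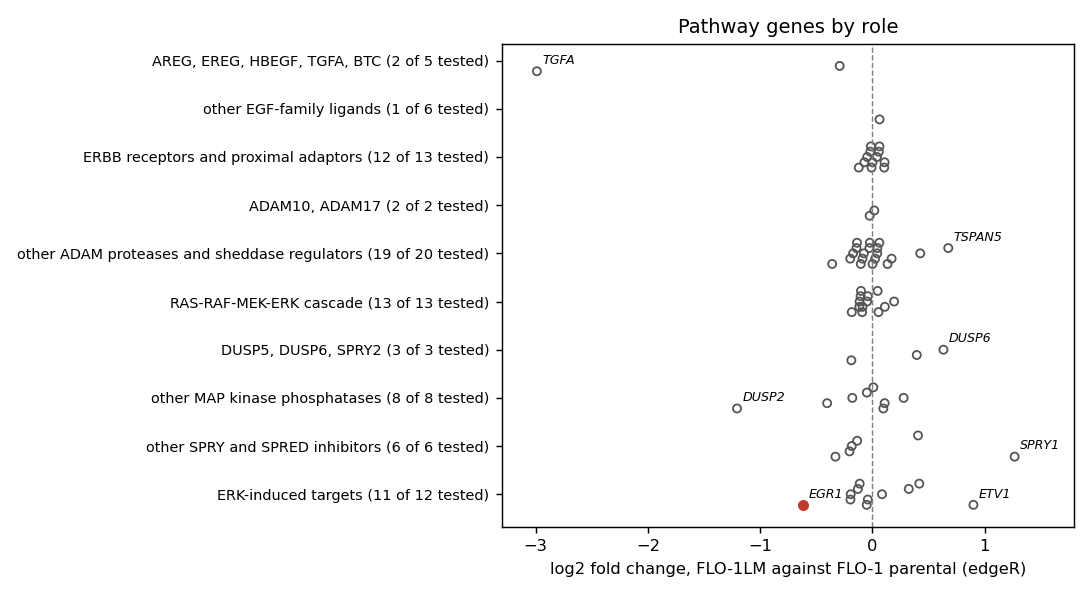
Log2 fold change of FLO-1LM against FLO-1 parental cells for every tested gene of the pathway, grouped by role, with 1 point per gene and the filled red point past the threshold. Most receptor, cascade and sheddase genes lie close to 0, *TGFA* at −2.99 lies farthest from it, and *EGR1* is the 1 gene called. *TGFA* was tested only through its parental counts, which favors a lower level in FLO-1LM.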

How the data were processed

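RNA from 2 FLO-1LM and 2 FLO-1 parental libraries was compared, with the line of each taken from the sample labels and 0 samples set aside. The authors made strand-specific libraries from total RNA for Illumina sequencing and mapped the reads to GRCh37 with an Ensembl annotation of that build. The submitters' processing notes name bcl2fastq 2.17 and Trimmomatic 0.30. The deposited values are read counts per Ensembl gene, without normalization. The aligner, the counter, its strand setting and how it treated reads with several matches are not given in the sources used here, and mouse reads were not looked for.

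Genes were filtered with edgeR's filterByExpr (minimum count 10, scaled to depth, minimum total 15), scaled by TMM and tested with the edgeR 4.0.16 quasi-likelihood test in R 4.3.3, with Benjamini-Hochberg adjustment over 17143 genes and a threshold of 0.05. The study's methods name voom and limma, which were run as an alternative (limma 3.58.1), as was DESeq2 1.42.0. The code was tested on simulated data. CPM are after TMM scaling, and each SE was obtained from the size of the log2 fold change and its F statistic (their ratio, with the root of F). Symbols, positions, lengths and overlaps came from a GENCODE annotation on GRCh37, later than that of the authors. Exon windows were searched in the genome, and coding sequences were aligned, in Python 3.11.15 with Biopython 1.88.

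All 10 genes were described. Of each pathway list, the genes past the threshold and the 2 with the largest absolute fold change were named, and the ERBB receptors always. The 10 genes and the lists were chosen with earlier results of these data known. The marker *PECAM1* was not matched and has no value. The alternatives changed the tool, scaling, filter or spread, left out mitochondrial genes, or left out each library in turn.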

Additional observations from a re-analysis of the deposited data

How the results depend on the processing

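None of the 10 genes passed the threshold under any of the 13 alternatives. Over these the log2 fold change ran from −0.22 to −0.17 for *DUSP5*, 0.31 to 0.49 for *SPRY2* and 0.19 to 1.32 for *DUSP6*, and from −3.61 to −2.50 for *TGFA* in the 11 alternatives that tested it (adjusted p from 0.161 to 0.999). Estimates near 0 changed sign. With a library left out they ran from −0.037 to 0.075 for *ADAM10*, −0.094 to 0.041 for *ADAM17* and −0.59 to 0.078 for *HBEGF*. *ADAM10* was at −0.014 by edgeR and −0.015 by limma voom with library totals, −0.036 without FLO-1LM replicate 1 and −0.037 without parental replicate 2. *ADAM17* was at 0.041 without FLO-1LM replicate 1, and *HBEGF* at 0.078 without parental replicate 2. The cause was not tested.

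Called genes of the pathway numbered 2, both lower, with library totals in edgeR and with robust dispersion, and 3 with no low-count filter, 1 higher and 2 lower. Over all genes, the calls rose to 577 with no filter, 147 of them higher, and with at least 10 counts in every library 203 were lower. With a library left out, pathway calls ran from 0 to 6, higher ones from 0 to 4 and lower ones from 0 to 2. Calls over all genes were 1052 without FLO-1LM replicate 1, 967 without FLO-1LM replicate 2, 116 without parental replicate 1 and 139 without parental replicate 2. Higher ones ran from 20 to 356 and lower ones from 96 to 696. In these fits the spread comes from the only pair left, and the lone library is assumed to vary alike. *EGR1* lost its call in 2 of these fits, at −0.60 and −0.63.

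No paired analysis was possible because the labels give every library a number of its own, and replicates 1 and 2 are only names given here within each line. Depth limits genes with few counts, such as *TGFA*, *NRG1* and *NRG4*, and for genes at 0 counts no fold change is given. Summing *AREG* and *AREGB* leaves 0 counts, so it gave no value.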
